A study of Mus musculus with 6 samples.

Results

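The genes described here encode the NF-kB transcription factor subunits Nfkb1, Nfkb2, Rela and Relb, the inhibitors Nfkbia, Nfkbib and Nfkbie, the nuclear inhibitor relatives Nfkbiz and Bcl3, and the ubiquitin-editing enzyme A20, encoded by Tnfaip3. They were picked by symbol, and 10 of 10 were found among the 21878 rows of an expression table from Neuro-2a cells, an established mouse neuroblastoma line. The 6 RNA sequencing libraries form 3 groups of 2: cells in which the long noncoding RNA lncPim1 was overexpressed, cells in which it was lowered by RNA interference (knockdown), and control cells labelled wild type. The labels name no injury, drug, empty vector or scrambled RNA for any group, and nothing in them tells if both libraries of a group come from separate cultures, so p-values measure the spread between libraries, which may be technical. lncPim1 has no row of that name in the table, and its level was not analysed here.

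NF-kB acts as pairs of subunits. In resting cells IkB proteins hold these pairs in the cytoplasm. Receptors for cytokines and microbial products activate the IkB kinase (IKK) complex, which marks IkB for destruction and frees mainly the RelA and p50 pair to enter the nucleus. A second, slower route runs through the kinase NIK and the processing of p100, the Nfkb2 product, to p52, which pairs with RelB. Nfkbia and Tnfaip3 are classic targets of the factor they restrain, which makes the circuit a negative feedback loop, and in neurons the pathway is known for roles in survival and in synaptic and inflammatory signalling.

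The values are FPKM, fragments per kilobase of transcript scaled to the total mapped in the library, as the authors deposited them. They are scaled to length, so levels may be compared between genes. Summed FPKM was 294510 and 303139 in the overexpression libraries, 277508 and 272528 in the knockdown libraries, and 298032 and 305463 in the control libraries. Absolute depth is unknown, and relative to control 1 the depths read from steps between the lowest values lay between 0.886 and 1.08. Over the 10721 genes averaging 1 FPKM or more, Spearman correlations were 0.995 to 0.997 within groups, and the knockdown libraries correlated with all others at 0.976 to 0.984. Of 11 sympathetic neuroblastoma markers, 9 averaged at least 1 FPKM, while Dbh stayed under 0.5 in every library. The leukocyte markers Ptprc, Itgam, Csf1r, Cx3cr1 and Adgre1 were each under 0.04 FPKM in every library. Tyrobp was at 0.126 and 0.145 FPKM under overexpression, 0.643 and 0.350 under knockdown and 0.123 and 0 in control cells, and Aif1 was at 0.165 and 0.118 under knockdown and at no more than 0.0432 elsewhere. Their part in the results was not tested. The summed level of 11 leukocyte markers, mostly Lyz2, was 5.08 and 4.55 under overexpression, 5.97 and 5.21 under knockdown and 7.24 and 6.58 in control cells. Summed over 10 digestive-tract markers, FPKM was 23.7 and 34.3 under overexpression, 0.623 and 0.547 under knockdown and 22.8 or more in both control libraries, and what part this has in the results below was not tested.

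The genes differed in opposite directions between knockdown and control cells. Nfkbiz, Nfkbia and Tnfaip3 were higher in knockdown than in control cells, and Rela, Nfkb1 and Nfkbib were lower. Nfkb2, Relb and Nfkbie did not pass the test. Under overexpression none of the 9 genes tested passed. Each gene's difference is the difference of group means of log2(FPKM + 1), which understates the change of low genes. It was tested with limma over all 10721 genes, with Benjamini-Hochberg adjustment, and a gene was called at an adjusted p under 0.05. In knockdown against control 6 of the 9 tested genes were called, 3 higher and 3 lower, where 46.2% of all tested genes were called, 14.8% higher and 31.3% lower. How all tested genes split into higher and lower depended on the scaling, as given below. In overexpression against control limma called 0 of 9, with 5 at an unadjusted p under 0.05, where 1.54% of all tested genes were called, 0.69% higher and 0.849% lower, and 17.1% had an unadjusted p under 0.05. In knockdown against control 6 of 9 had an unadjusted p under 0.05, against 54.1% of all tested genes. In bulk RNA a smaller share of cells expressing a gene and less RNA per cell cannot be told apart. Bcl3, with a mean under 1 FPKM, was left out of the test. Tnfaip3, 1 of the 3 called higher under knockdown, averaged 0.755 FPKM in control cells. It reached a mean of 1 FPKM through the treated groups, so the counts describe the genes that passed.

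**Figure D1:**
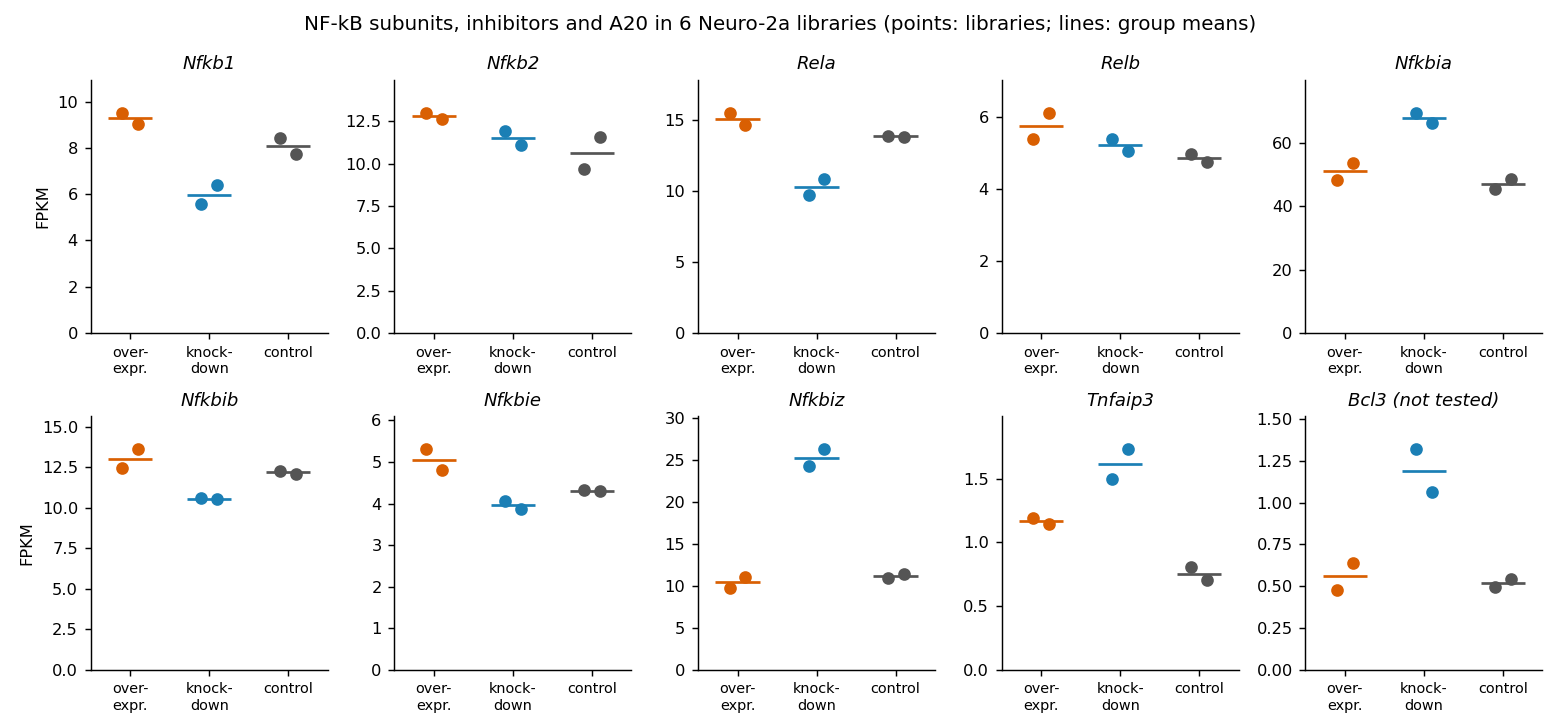
FPKM (vertical axes, each from 0) of the 10 genes in the 6 libraries, with overexpression, knockdown and control from left to right; points are libraries and lines are group means. Nfkbiz stood at 24.3 and 26.3 in the knockdown libraries and at no more than 11.4 in the other 4, whereas Rela and Nfkb1 were lowest in the knockdown libraries.

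Among the subunits, Rela, which encodes RelA (p65), the main transactivating subunit, was the most abundant in control cells. Rela stood at 15.5 and 14.6 FPKM under overexpression, 9.70 and 10.8 under knockdown, and 13.8 and 13.8 in control cells. The knockdown libraries were both below all others. The difference in Rela was -0.40 ± 0.06 (SE) for knockdown against control (limma, adjusted p = 0.00159) and 0.11 ± 0.06 for overexpression against control (limma, adjusted p = 0.413).

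Nfkb1, which encodes the precursor p105 and, from it, the DNA-binding subunit p50, followed the same order. Nfkb1 stood at 9.52 and 9.05 FPKM under overexpression, 5.57 and 6.39 under knockdown and 8.41 and 7.73 in control cells, and the 3 groups did not overlap. The difference was -0.38 ± 0.08 for knockdown against control (limma, adjusted p = 0.00430). The excess under overexpression, 0.18 ± 0.08, did not pass (limma, adjusted p = 0.275). The mean level under knockdown was 0.741 times that of control cells for Nfkb1 and 0.742 times for Rela.

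The subunits of the slower route were not called. Nfkb2, which encodes p100 and its product p52, stood at 13.0 and 12.6 FPKM under overexpression, 11.9 and 11.1 under knockdown and 9.69 and 11.6 in control cells. The knockdown and control libraries overlapped, and the difference of 0.11 had a 95% interval from -0.07 to 0.30 (limma, adjusted p = 0.290). The sign of this difference rests on control 1, since without it the value was -0.0050. Both overexpression libraries were above the rest for Nfkb2, with a difference of 0.25 ± 0.08 against control that did not pass (limma, adjusted p = 0.164). Part of the exons of Nfkb2, 830 bases shared with Psd and a bidirectional promoter lncRNA on the opposite strand, could hold reads of either gene, since how strand was set when reads were counted is not stated in the labels.

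Relb, which encodes the partner of p52, stood at 5.37 and 6.11 FPKM under overexpression, 5.39 and 5.04 under knockdown and 4.97 and 4.74 in control cells. Its differences against control were 0.20 ± 0.08 under overexpression (limma, adjusted p = 0.233) and 0.08 ± 0.08 under knockdown, with a 95% interval from -0.09 to 0.26 (limma, adjusted p = 0.396). Rel, which encodes c-Rel and is the remaining subunit gene, was in the list of pathway genes and not among the 10. Rel was at 2.61 and 2.35 FPKM under overexpression, 5.03 and 4.41 under knockdown and 2.60 and 2.27 in control cells, and rose by 0.74 ± 0.09 under knockdown (limma, adjusted p = 4.46e-04). Rel had the lowest FPKM of the 5 subunit genes in each control library and was close to Relb in the knockdown libraries.

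The inhibitors gave the widest range. Nfkbia, which encodes IkB-alpha, the fast-turnover inhibitor of the RelA and p50 pair, was the most abundant of the 10 genes in every library. Nfkbia stood at 48.2 and 53.7 FPKM under overexpression, 69.5 and 66.2 under knockdown and 45.5 and 48.6 in control cells. Both knockdown libraries lay above the others, while overexpression and control libraries overlapped. The rise under knockdown was 0.52 ± 0.06 (limma, adjusted p = 4.51e-04), and the mean was 1.44 times that of control cells. Under overexpression the difference was 0.11 ± 0.06 (limma, adjusted p = 0.415).

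Nfkbib, which encodes the slower-acting IkB-beta, moved the other way. Nfkbib was at 12.5 and 13.6 FPKM under overexpression, 10.6 and 10.6 under knockdown and 12.3 and 12.1 in control cells. Its fall by 0.19 ± 0.06 under knockdown (limma, adjusted p = 0.0309) was small. Leaving out control 1 ended the call (limma, adjusted p = 0.132), as did leaving out control 2 (0.0903), knockdown 1 (0.0844) or knockdown 2 (0.0841), scaling by median log ratio (0.184), quantile normalization (0.129) or with the replicate number as a block (0.0526). Exons of Nfkbib share 356 bases with Sirt2 and Ccer2 on the opposite strand. Nfkbie, which encodes IkB-epsilon, stood at 5.30 and 4.81 FPKM under overexpression, 4.07 and 3.87 under knockdown and 4.32 and 4.30 in control cells. Its difference was -0.10 for knockdown against control, with a 95% interval from -0.26 to 0.07 (limma, adjusted p = 0.307), and 0.19 ± 0.07 for overexpression against control (limma, adjusted p = 0.232).

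Nfkbiz, which encodes IkB-zeta, a nuclear cofactor that works with p50 on selected secondary target genes, had the largest difference of the 9 tested genes on the log2(FPKM + 1) scale. Nfkbiz stood at 9.77 and 11.1 FPKM under overexpression, 24.3 and 26.3 under knockdown and 10.9 and 11.4 in control cells. The knockdown libraries were each over 2 times every other library, and the overexpression and control libraries overlapped. The rise under knockdown was 1.11 ± 0.07 (limma, adjusted p = 7.19e-05), the 40th largest among 10721 tested genes. Under overexpression the difference was -0.09 ± 0.07 (limma, adjusted p = 0.564).

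Bcl3 encodes a nuclear IkB relative that joins p50 and p52 at DNA. It was the lowest of the 10 genes in control cells, at 0.479 and 0.640 FPKM under overexpression, 1.32 and 1.07 under knockdown and 0.494 and 0.546 in control cells. Both knockdown libraries were above the other 4. The mean under knockdown was 2.29 times that in control cells, a difference of 0.53 on the log2(FPKM + 1) scale. When no filter on low values was applied, Bcl3 was called in knockdown against control (limma, adjusted p = 0.0117). An antisense gene, Gm16175, overlaps 161 bases of its exons.

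Tnfaip3 encodes A20, which removes activating ubiquitin chains from RIPK1 and other signalling proteins upstream of IKK. Tnfaip3 averaged under 1 FPKM in control cells and passed the filter through the other groups. It stood at 1.195 and 1.14 FPKM under overexpression, 1.49 and 1.73 under knockdown and 0.803 and 0.708 in control cells. It was the gene of the 10 in which both treated groups lay above control without overlap and knockdown was the higher of them. The rise under knockdown was 0.57 ± 0.10 (limma, adjusted p = 0.00176), and the mean was 2.13 times the control level. Under overexpression the difference of 0.31 ± 0.10 did not pass (limma, adjusted p = 0.155), though the mean was 1.55 times the control level. Both contrasts use the same 2 control libraries.

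**Figure D2:**
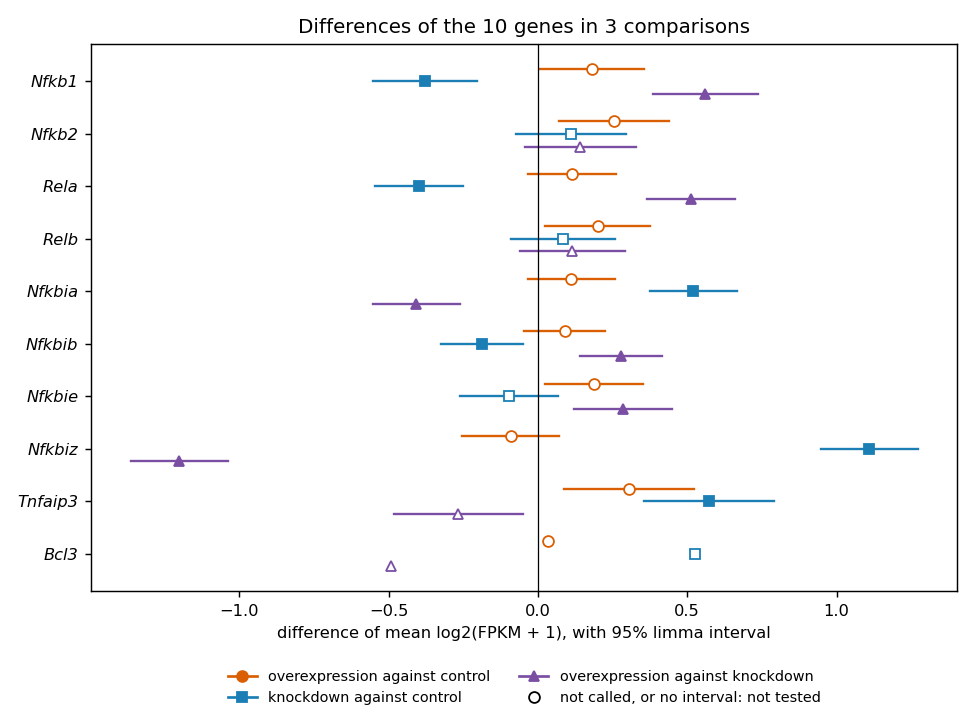
Differences of mean log2(FPKM + 1) (horizontal axis) with 95% intervals from limma for the 3 comparisons named in the legend; filled symbols were called, and Bcl3, without an interval, was not tested. Blue squares spread from -0.40 for Rela to 1.11 for Nfkbiz, while no orange circle is filled.

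Overexpression and knockdown cells were then compared directly, a difference that does not use the control means. The control libraries still entered the filter and the spread, which was shared by all 6 libraries. Of the 9 tested genes 6 were called, 4 higher and 2 lower, where 40.5% of all tested genes were called, 28.1% higher and 12.4% lower. An unadjusted p under 0.05 was reached by 7 of 9, against 49.8% of all tested genes. Higher under overexpression were Nfkb1 (0.56 ± 0.08, limma, adjusted p = 0.00106), Rela (0.51 ± 0.06, limma, adjusted p = 7.99e-04), Nfkbib (0.28 ± 0.06, limma, adjusted p = 0.00702) and Nfkbie (0.28 ± 0.07, limma, adjusted p = 0.0143). Lower under overexpression were Nfkbiz (-1.20 ± 0.07, limma, adjusted p = 8.64e-05) and Nfkbia (-0.41 ± 0.06, limma, adjusted p = 0.00186). Tnfaip3, with a difference of -0.27 ± 0.10, was just outside the threshold (limma, adjusted p = 0.0518). The call of Nfkbie was lost without overexpression 1 (limma, adjusted p = 0.0889) or knockdown 2 (0.0622), and that of Nfkbib without overexpression 2 (0.0532). Nfkb2 (0.14, 95% interval -0.04 to 0.33) and Relb (0.12, 95% interval -0.06 to 0.29) were not called.

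The median difference over the 9 tested genes was 0.18 under overexpression and 0.08 under knockdown, against medians of -0.0031 and -0.07 over all tested genes. Under overexpression 8 of the 9 differences were positive, where 48.7% of all tested genes had a positive difference, and Nfkbiz was the exception. Under knockdown 5 of 9 were positive, against 39.1% of all tested genes, and in overexpression against knockdown 6 of 9, against 61.9%. The 9 exclude Bcl3, which the filter on low values removed, and include Tnfaip3, which passed it through the groups where it was higher.

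Ratios between genes of the same library do not depend on how that library was scaled, and a few were formed after the values had been seen, as descriptions. The FPKM ratio of Nfkbia to Rela was 3.12 and 3.68 under overexpression, 7.16 and 6.13 under knockdown and 3.29 and 3.52 in control cells. Both knockdown libraries were above the other 4, with the inhibitor higher and the subunit lower in the same libraries. The ratio of Nfkbiz to Nfkb1, whose product p50 is the partner of IkB-zeta, was 1.03 and 1.23 under overexpression, 4.36 and 4.11 under knockdown and 1.299 and 1.48 in control cells. Nfkbia, Nfkbib and Nfkbie summed to 66.0 and 72.2 FPKM under overexpression, 84.2 and 80.7 under knockdown and 62.1 and 65.0 in control cells. Divided by the sum of the 5 subunit genes, this gave 1.44 and 1.61 under overexpression, 2.24 and 2.14 under knockdown and 1.57 and 1.62 in control cells.

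The summed level of the 5 subunit genes was 46.0 and 44.7 FPKM under overexpression, 37.6 and 37.7 under knockdown and 39.5 and 40.1 in control cells. The overexpression libraries were highest and the knockdown libraries lowest. Rela gave 33.7% and 32.7% of the sum under overexpression, 25.8% and 28.6% under knockdown and 35.02% and 34.4% in control cells. Rel gave 5.67% and 5.26% under overexpression, 13.4% and 11.7% under knockdown and 6.58% and 5.65% in control cells. The share of Relb was 11.7% and 13.7% under overexpression, 14.3% and 13.4% under knockdown and 12.6% and 11.8% in control cells, so knockdown and overexpression overlapped for it. Among the 3 cytoplasmic inhibitors, Nfkbia made up 73.1% and 74.5% of the sum under overexpression, 82.6% and 82.1% under knockdown and 73.2% and 74.8% in control cells.

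**Figure D3:**
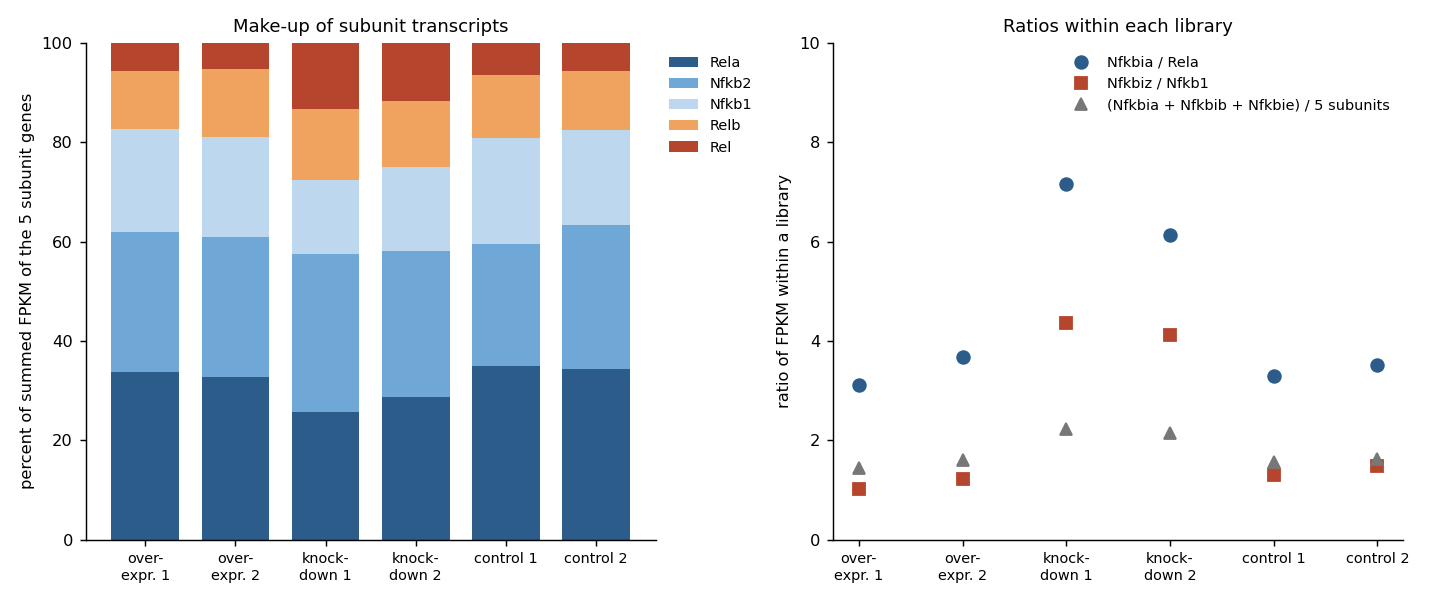
Left, percent of the summed FPKM of 5 subunit genes held by each, by library; right, FPKM ratios within each library for Nfkbia to Rela, Nfkbiz to Nfkb1 and the 3 inhibitors to the 5 subunits. The knockdown libraries have the largest Rel share (13.4% and 11.7%) and the highest values of all 3 ratios, with Nfkbia to Rela at 7.16 and 6.13.

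Several of these genes carry binding sites for NF-kB itself near their start, so the promoters were read to show which sequences lie there. RefSeq promoter windows on build GRCm38.p6, each from 250 bases before the start to 50 after, were matched by symbol for 7 of the 10 genes, and there was no entry for Nfkb1, Relb and Nfkbiz. The 10-base kappaB consensus, searched on both strands with overlapping matches joined, was found for Nfkb2, Nfkbia, Nfkbie, Tnfaip3 and Bcl3, 5 of 7 genes, and not for Rela and Nfkbib. Of 27025 genes with windows of the same length, 5.14% held it in at least 1 window, and 4.51% of the 32851 windows did. A match is only a description of letters, and binding was not measured in these libraries.

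The upstream sequence of Nfkbia is shown because it was the most abundant of the called genes and its kappaB element is close to the start. Capitals mark the consensus match, which lies 29 to 20 bases before the start. The whole stretch shown is chr12:55492648-55492797 on the minus strand of GRCm38.p6, 5′ to 3′.
Nfkbia: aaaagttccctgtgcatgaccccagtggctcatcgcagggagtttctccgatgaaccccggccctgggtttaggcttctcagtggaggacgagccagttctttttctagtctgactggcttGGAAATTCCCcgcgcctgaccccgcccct

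For the other genes with a match, 30 bases around it are given, with the match in capitals, so that the sites of genes that rose under knockdown (Tnfaip3) can be set beside those of genes that were not called (Nfkb2, Nfkbie) or not tested (Bcl3). The positions are chr10:19015403-19015432 and chr10:19015516-19015545 (Tnfaip3, minus strand), chr19:46304688-46304717 and chr19:46304716-46304745 (Nfkb2, plus strand), chr17:45555584-45555613 (Nfkbie, plus strand) and chr7:19822734-19822763 (Bcl3, minus strand) on GRCm38.p6.
Tnfaip3 near the start: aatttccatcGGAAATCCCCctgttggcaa
Tnfaip3 farther upstream: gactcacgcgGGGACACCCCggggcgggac
Nfkb2 farther upstream: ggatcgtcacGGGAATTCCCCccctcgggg
Nfkb2 near the start: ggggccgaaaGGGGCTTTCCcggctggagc
Nfkbie: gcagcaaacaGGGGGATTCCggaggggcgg
Bcl3: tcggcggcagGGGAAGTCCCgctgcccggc

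The match of Bcl3 lies just after its start, from base 3 to base 12, and those of Tnfaip3 near the start and Nfkb2 near the start lie at 12 and 11 bases before it. Genes with a match fell on both sides of the test. Nfkbia and Tnfaip3 rose under knockdown, Nfkb2 and Nfkbie were not called, and Bcl3 was not tested. Rela and Nfkbib, the pair without a match in this window, were lower, and the call of Nfkbib was lost under several alternatives. Nfkb1, Relb and Nfkbiz had no window to read. Nfkb2 has 3 annotated starts and Tnfaip3 has 2, and the sites shown belong to the first window of each. Windows 2 and 3 of Nfkb2 also hold matches, which are not shown, and window 2 of Tnfaip3 holds 0.

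The rest of the pathway was described with lists of ligands, receptors, adaptors, kinases and target genes. These lists hold textbook members, and they were drawn up with earlier results of these data known. Of 8 ligand genes 1 averaged at least 1 FPKM. This was Tnfsf13b, which encodes the B-cell activating factor BAFF, at 7.89 and 6.9998 FPKM under overexpression, 9.18 and 10.002 under knockdown and 8.10 and 8.33 in control cells. It was not called against control in either treated group, although the difference under knockdown (0.20 ± 0.07, limma, adjusted p = 0.0507) was called under 6 alternatives, with adjusted p from 0.0150 to 0.0455. It was lower under overexpression than under knockdown (-0.33 ± 0.07, limma, adjusted p = 0.00807), a call lost without overexpression 2 (limma, adjusted p = 0.0554).

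Of 12 receptor genes 6 were tested. Under knockdown 2 were higher and 1 lower, and under overexpression limma called 0, with 4 at an unadjusted p under 0.05. Over all tested genes 46.2% were called under knockdown and 17.1% had an unadjusted p under 0.05 under overexpression, so the 3 of 6 receptor calls were near the background. Cd40, the receptor that feeds both routes, was at 8.25 and 7.63 FPKM under overexpression, 10.8 and 11.6 under knockdown and 6.40 and 6.002 in control cells. The 3 groups did not overlap, and Cd40 rose by 0.76 ± 0.07 under knockdown (limma, adjusted p = 1.55e-04). Tnfrsf12a, the receptor of the ligand TWEAK, stood at 79.3 and 72.1 FPKM under overexpression, 81.9 and 75.6 under knockdown and 61.3 and 72.2 in control cells. Its call under knockdown (0.24 ± 0.08, limma, adjusted p = 0.0423) was lost without knockdown 1 (limma, adjusted p = 0.190) or control 1 (0.283), with the replicate number as a block (0.0622), without the trend (0.0715) and with no filter (0.127). Ngfr, the neurotrophin receptor p75, was at 57.3 and 60.6 FPKM under overexpression, 59.1 and 55.8 under knockdown and 68.6 and 71.3 in control cells, with both treated groups below control. It fell by 0.28 ± 0.05 under knockdown (limma, adjusted p = 0.00331), a call lost after quantile normalization (limma, adjusted p = 0.0933).

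Among 9 tested genes of the IKK complex, its upstream kinases and their adaptors, 2 were higher and 1 lower under knockdown. Under overexpression limma called 0, with 1 at an unadjusted p under 0.05, where 17.1% of all tested genes had such a p. The 3 of 9 called under knockdown were a smaller share than the 46.2% of all tested genes. Map3k14, which encodes NIK, the kinase of the slower route, was at 1.65 and 1.72 FPKM under overexpression, 2.35 and 2.38 under knockdown and 1.65 and 1.51 in control cells. It rose by 0.38 ± 0.08 under knockdown (limma, adjusted p = 0.00554). Tab1, an adaptor of the kinase TAK1, was higher by 0.23 ± 0.05 under knockdown (limma, adjusted p = 0.00971), a call lost without control 2 (limma, adjusted p = 0.0559). Tab3, a related adaptor, was lower by 0.30 ± 0.09 (limma, adjusted p = 0.0293), a call lost without control 1 (limma, adjusted p = 0.0899), control 2 (0.118) or knockdown 1 (0.140), with no filter (0.0646) and after scaling by median log ratio (0.0677). Tab2 was called in overexpression against knockdown (0.30 ± 0.06, limma, adjusted p = 0.00504) and not in knockdown against control (-0.16 ± 0.06, limma, adjusted p = 0.0530). The 3 core IKK genes, Chuk, Ikbkb and Ikbkg, were not called in any comparison. Chuk was at 18.5 and 16.8 FPKM under overexpression, 15.9 and 15.9 under knockdown and 17.2 and 17.8 in control cells.

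Of 20 tested adaptors and ubiquitin enzymes, 5 were higher and 3 lower under knockdown, and limma called 0 under overexpression, with 5 at an unadjusted p under 0.05. The 8 of 20 called under knockdown were near the 46.2% of all tested genes, and 17.1% of all tested genes had an unadjusted p under 0.05 under overexpression. Without knockdown 1 or control 2 the number called under knockdown was 5. Traf3, an adaptor that keeps NIK low in resting cells, was at 6.87 and 6.93 FPKM under overexpression, 4.27 and 4.64 under knockdown and 5.87 and 6.07 in control cells. It fell by 0.35 ± 0.07 under knockdown (limma, adjusted p = 0.00305). Traf5, a related adaptor, was at 1.93 and 2.28 FPKM under overexpression, 2.76 and 2.57 under knockdown and 1.07 and 1.45 in control cells, a rise of 0.70 ± 0.11 under knockdown (limma, adjusted p = 0.00114). Irak2, whose product acts downstream of interleukin-1 and Toll-like receptors, rose by 0.43 ± 0.09 (limma, adjusted p = 0.00512). Tax1bp1, a partner of A20, fell by 0.29 ± 0.05 (limma, adjusted p = 0.00189).

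Known NF-kB target genes were listed apart from the 10 genes. Of 27 on the list 16 were tested and 11 fell under the filter, Vcam1 and Ccl2 among them. Of the 16, Cxcl2, Ccl5 and Zc3h12a averaged under 1 FPKM in control cells and passed through the groups where they were higher, so the counts describe the genes that passed and not the whole list. Under knockdown 13 were higher and 1, Sod2, was lower, with a median difference of 0.64 over the 16, against -0.07 over all tested genes. Over all tested genes 14.8% were called higher and 31.3% lower, a split that depended on the scaling, as given below. With no filter on low values 12 of the 27 were called higher and 0 lower, with a median of 0.40, and with a filter at 5 FPKM 8 were higher and 1 lower. Under overexpression, with the filter at 1 FPKM, 2 were higher and 0 lower, with a median of 0.27, against -0.0031 over all tested genes. Of all tested genes 0.69% were called higher and 0.849% lower in that comparison. The number called under overexpression was 0 with no filter, where the median was 0.15 and both calls were lost, 0 without overexpression 1 and 1 without overexpression 2, control 1 or control 2. In overexpression against knockdown 1 was higher and 8 were lower, where 28.1% of all tested genes were called higher and 12.4% lower.

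The pair called under overexpression were chemokine genes. Cxcl10, an interferon-responsive chemokine gene, was at 15.9 and 16.8 FPKM under overexpression, 15.7 and 12.2 under knockdown and 9.93 and 9.08 in control cells, and rose by 0.72 ± 0.10 under overexpression (limma, adjusted p = 0.0177) and by 0.50 ± 0.10 under knockdown (limma, adjusted p = 0.00494). Ccl5, a lymphocyte-attracting chemokine gene, was at 5.19 and 4.16 FPKM under overexpression, 1.04 and 1.74 under knockdown and 0.431 and 1.05 in control cells. It rose by 1.72 ± 0.19 under overexpression (limma, adjusted p = 0.00742) and was not called under knockdown (0.46 ± 0.19, limma, adjusted p = 0.0772). In overexpression against knockdown Ccl5 was the gene called higher (1.26 ± 0.19, limma, adjusted p = 0.00163).

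The 4 targets with the smallest p under knockdown follow, each with both treated groups before control. Ier3, a stress-induced survival gene, stood at 29.5 and 26.7 FPKM under overexpression, 58.7 and 59.1 under knockdown and 24.1 and 27.2 in control cells. Its rise under knockdown was 1.17 ± 0.07 (limma, adjusted p = 5.37e-05). Il6, the interleukin 6 gene, was at 8.57 and 7.68 FPKM under overexpression, 14.97 and 16.9 under knockdown and 5.39 and 6.35 in control cells. It rose by 1.301 ± 0.09 (limma, adjusted p = 7.81e-05). Its groups did not overlap, and the overexpression libraries lay between the others.

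Gadd45b, a growth-arrest and stress gene, was at 5.27 and 6.11 FPKM under overexpression, 12.5 and 11.2 under knockdown and 5.03 and 4.65 in control cells, a rise of 1.14 ± 0.08 under knockdown (limma, adjusted p = 9.70e-05). Cxcl1, a neutrophil-attracting chemokine gene that is a known target of NF-kB, had the largest difference of the list on the log2(FPKM + 1) scale. By the ratio of knockdown to control means, Cxcl2, a related chemokine gene, was higher at 10.1 than Cxcl1 at 8.43. Cxcl1 was at 8.34 and 5.24 FPKM under overexpression, 35.5 and 37.0 under knockdown and 3.13 and 5.47 in control cells, and the overexpression and control libraries overlapped. Its rise under knockdown was 2.85 ± 0.22 (limma, adjusted p = 1.05e-04). Sod2, the mitochondrial superoxide dismutase gene, was at 31.4 and 29.0 FPKM under overexpression, 28.6 and 28.2 under knockdown and 31.1 and 34.3 in control cells. Its fall by 0.20 ± 0.06 (limma, adjusted p = 0.0316) was not called in the counts made with no filter, after scaling by median log ratio or after quantile normalization, where 0 targets were lower.

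**Figure D4:**
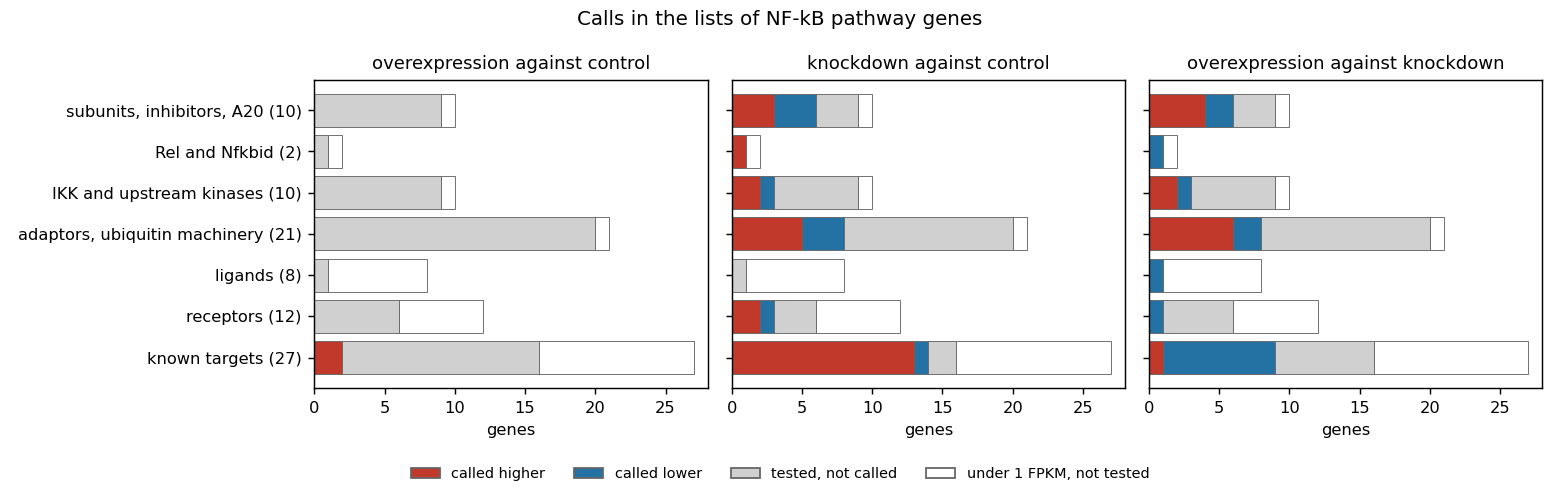
Number of genes (horizontal axis) called higher, called lower, tested without a call, or under 1 FPKM and not tested in each list, for the 3 comparisons; list sizes stand in brackets. In knockdown against control 13 of the 16 tested targets, from a list of 27, are red. The 9 tested subunits, inhibitors and A20 hold 3 higher and 3 lower. Among the red, Tnfaip3, Cxcl2 and Zc3h12a passed the filter through the groups where they were higher.

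**Figure D5:**
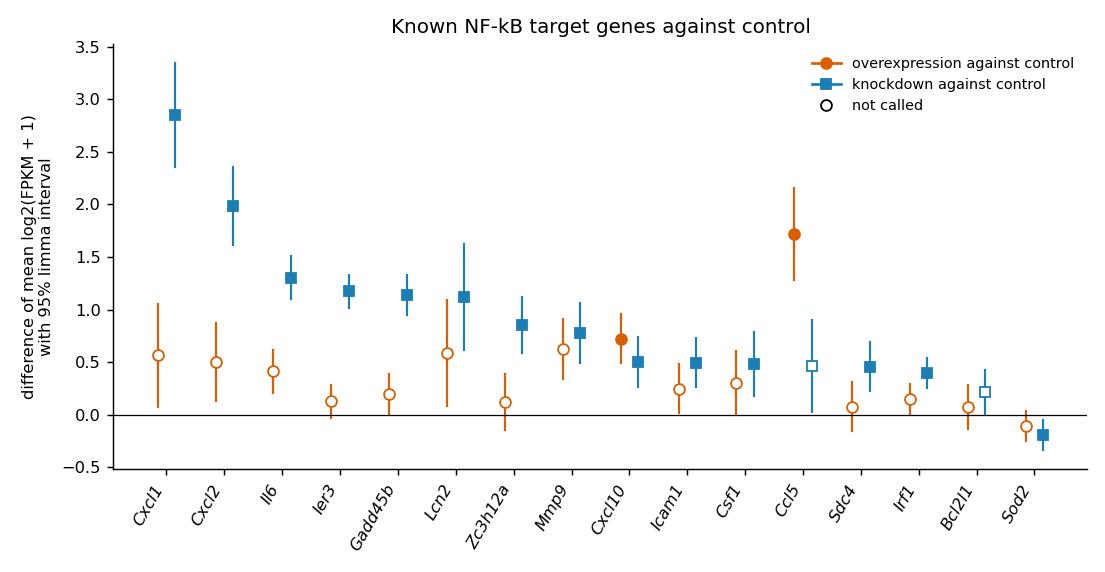
Differences of mean log2(FPKM + 1) against control (vertical axis) with 95% limma intervals for the 16 tested target genes, orange circles for overexpression and blue squares for knockdown, filled where called. Cxcl1 is highest under knockdown at 2.85, Ccl5 is highest under overexpression at 1.72, and both comparisons share the same 2 control libraries.

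Genes outside the pathway with a pattern most like that of Nfkbiz were found by Euclidean distance of log2(FPKM + 1), relative to the control mean, over the 6 libraries. The 5 nearest, predicted models left out, were Lcat, Snapc5, Hoxc8, Nr1d1 and Ppm1j. Their Pearson correlations with Nfkbiz over these 6 libraries were 0.99, 0.98, 0.99, 0.99 and 0.98, which mostly repeat the step between the knockdown libraries and the other 4. Lcat (2.55 and 3.03 FPKM under knockdown) and Hoxc8 (2.27 and 2.54) were under 1 FPKM in the other 4 libraries. Both passed the filter on low values through the knockdown libraries. Nr1d1, the most abundant of the 5, was at 5.47 and 6.73 FPKM under overexpression, 18.3 and 17.2 under knockdown and 6.26 and 7.03 in control cells.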

How the data were processed

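The authors deposited 1 FPKM value for each gene symbol in each library. The build mm10 and the tools HISAT2, Trimmomatic, HTSeq, Cufflinks and DESeq are named, per the submitters' processing notes. Tool versions, annotation and filters are not stated there. Per the labels' protocols, libraries came from total RNA with a stranded mRNA kit. FPKM depends on the library total, so a few abundant genes shift all others. Counts were not recovered, so no counting intervals are given. Genes averaging 1 FPKM or more over 6 libraries (10721 of 21878 rows) were tested on log2(FPKM + 1) with limma 3.58.1 in R 4.3.3, with a mean per group, a spread shared by all libraries, 3 residual degrees of freedom and a trend with expression. P-values were adjusted by the Benjamini-Hochberg method over all tested genes, and genes under 0.05 were called. The model was tested on simulated data. Gene positions are from GENCODE on GRCm38 and promoters from RefSeq. The 10 genes and the lists were chosen with earlier results of these data known. From each other list, up to 4 genes called in any comparison, with the smallest p under knockdown, were named, with the 5 nearest to Nfkbiz, and any other gene named was chosen after its values were seen. The alternatives were no filter, a 5 FPKM filter, pseudocounts of 0.5 and 0.1, 2 scalings, no trend, the 4 libraries compared alone, a replicate block and leaving out each library.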

Additional observations from a re-analysis of the deposited data

How the results depend on the processing

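Nfkb1, Rela, Nfkbia and Nfkbiz stayed called in knockdown against control under all 15 alternatives run for each, and Tnfaip3 under all 14. Their differences ranged from -0.46 to -0.29 for Nfkb1, -0.47 to -0.32 for Rela, 0.47 to 0.67 for Nfkbia, 1.06 to 1.21 for Nfkbiz and 0.50 to 1.00 for Tnfaip3. The 14 for Tnfaip3 do not include the 5 FPKM filter, which removed it. Nfkbib stayed called under 8 of 15. Of the 9 tested genes, 5 or 6 were called with a library left out, and 0 were called in overexpression against control under every alternative. Tnfaip3 was called in overexpression against knockdown without the trend (limma, adjusted p = 0.0184) and with scaling by median log ratio (0.0319), under 2 of 14 alternatives.

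Over all genes, overexpression against control gave 165 calls, 9 without a filter, 97 without the trend, 66 with the replicate block and 14 to 172 with a library left out. Knockdown against control gave 3375 to 4845 with a library left out, and overexpression against knockdown 2938 to 3955. Of the calls in knockdown against control, 1590 were higher and 3358 lower, against 2259 and 2242 after median log ratio scaling and 2003 and 2292 after quantile normalization. In overexpression against knockdown 3013 were higher and 1332 lower, against 1914 and 1931, and 1930 and 1707, with the same scalings. The cause was not tested. The replicate numbers share only a number. Deviations of libraries with the same number correlated at -0.12, 0.01 and -0.21 between groups, and under the block Nfkbib and, among the other named genes, Tnfrsf12a lost their calls in knockdown against control.

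Signs changed only for differences that were not called in either fit. With a library left out, Nfkb2 ranged from -0.0050 (without control 1) to 0.227 in knockdown against control. In overexpression against control Rel ranged from -0.0497 (without control 2; -0.0315 without overexpression 1) to 0.0908, and Tab3 from -0.0330 (without overexpression 1) to 0.129. In overexpression against knockdown Ngfr ranged from -0.0051 (without knockdown 2; -0.0040 without overexpression 2) to 0.0763 and was -0.0458 after median log ratio scaling and -0.104 after quantile normalization. Tnfrsf12a ranged from -0.124 to 0.0110 (without overexpression 2). Absolute depth is unknown, which limits what can be said of Bcl3, Tnfaip3 and other genes near 1 FPKM.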

Other observations

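Genes of the pathway under the filter were not tested, and those named here were chosen after their values were seen. Tnf, which encodes the prototype activating ligand, was at 0.150 and 0.207 FPKM under overexpression, 0.895 and 0.955 under knockdown and 0.0912 and 0.188 in control cells. Both knockdown libraries were above the other 4, although the level stayed under 1 FPKM. Lta, the lymphotoxin alpha gene next to Tnf in the genome, was at 0.0586 and 0.102 FPKM under overexpression, 0.237 and 0.219 under knockdown, and in control cells was listed at 0 in one library and at 0.0619 in the other. Il1a, Tnfsf11 and Cd40lg were listed at 0 in every library, and Il1b stayed under 0.14 FPKM.

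Nfkbid, which encodes the nuclear inhibitor relative IkBNS, was at 0.877 and 0.654 FPKM under overexpression, 0.875 and 1.197 under knockdown and 1.08 and 0.976 in control cells. Both overexpression libraries were below control, and the knockdown libraries overlapped both groups. Vcam1, an adhesion gene on the target list, was at 1.90 and 1.204 FPKM under overexpression, 0.416 and 0.632 under knockdown and 0.509 and 0.835 in control cells. Ccl2, a monocyte-attracting chemokine gene, was at 1.39 and 1.35 FPKM under overexpression, 0.345 and 0.0650 under knockdown and 0.211 and 0.651 in control cells. For both, the overexpression libraries were above all others, which differs from Tnf, where the knockdown libraries were.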
